A study of Rattus norvegicus with 12 samples.

Results

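The comparison described here set the striatum of dopamine-depleted rats that had received high frequency stimulation (HFS) of the subthalamic nucleus (STN) against the striatum of dopamine-depleted rats that had not. Its members are 6 of the 12 arrays of the series, chosen by their labels: the 3 arrays of the HFS group (stimulated, no L-DOPA) and the 3 arrays of the 6-OHDA group (neither treatment), with 1 rat per array. All animals were male rats whose left substantia nigra pars compacta had been injected with 9 µg of 6-hydroxydopamine (6-OHDA), a toxin taken up by dopamine neurons. In the HFS group an electrode was placed in the STN on the side of the lesion, and the freely moving rats received continuous stimulation over 5 days, with a frequency of 130 Hz, a pulse width of 80 µs and a current of 60 µA. The 6-OHDA group carried no electrode, so the effects of the implant and of the current cannot be told apart, and no unlesioned rat was hybridised. The dorsal striatum was taken as punches that were pooled within each rat. The DOPA and DOPA/HFS groups (3 arrays each; L-DOPA at 25 mg/kg with benserazide at 12.5 mg/kg in 2 daily injections for 19 days, with the same stimulation in the DOPA/HFS group) enter only where the response to HFS with and without L-DOPA is compared.

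The STN is a small excitatory nucleus that drives the output nuclei of the basal ganglia, and its stimulation at high frequency is used to treat Parkinson's disease. The striatum lies upstream of the STN. Most of its neurons are GABAergic projection neurons, which fall into direct pathway cells that carry D1 dopamine receptors and the peptides dynorphin and substance P, and indirect pathway cells that carry D2 receptors and enkephalin. Neuronal activity and dopamine act on these cells in part through cAMP and calcium, which switch on immediate early genes within minutes to hours.

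Each array was a single-colour Agilent rat array, and 20421 genes passed the filter on dim probes. Values are log2 signals after quantile normalization among the 6 arrays, and a difference is the mean HFS signal minus the mean 6-OHDA signal on that scale, fitted with limma with the slide as a block and given with its standard error (SE). There were 3 slides, each with 1 array of either group, and slides are numbered as the replicates. The 6-OHDA array sat at the same place on every slide and so did the HFS array, so position and treatment cannot be told apart. Between 53.8% and 58.9% of the spots were well above background on the 6-OHDA arrays, against 60.3% to 63.2% on the HFS arrays. In all, 311 genes were above background on all 3 HFS arrays and on 0 of the 3 6-OHDA arrays. The other way round there were 0 genes, which bears on every dim gene named as higher. A link between these counts and the share of spots above background was not tested. The tissue was bulk, so that a lower signal can come from fewer cells of a type or from less RNA per cell, and these cannot be told apart.

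No gene was called different between the groups. At an adjusted p under 0.1 with a fold over 1.2 or under 0.8, limma called 0 of the 20421 genes higher in HFS (0.0%) and 0 lower (0.0%), and the lowest adjusted p was 0.343. At an unadjusted p under 0.05 and the same fold limits, 315 genes (1.54%) were higher and 421 (2.06%) lower. Genes whose 3 HFS arrays all lay above the 3 6-OHDA arrays at a fold over 1.2 numbered 406 (1.99%), and those all below at a fold under 0.8 numbered 272 (1.33%). With no fold limit these counts were 598 (2.93%) and 477 (2.34%). Genes that keep to the fold limits are called non-overlapping here, and an exact two-sided permutation test of a single gene cannot give less than p = 0.1 with 3 arrays against 3. Each count of non-overlapping genes in a list below is to be read beside the 1.99% higher and 1.33% lower of all genes. The study had named 48 of the tested genes, mainly as changed by HFS on these same arrays. It also measured some of them by RT-qPCR in other rats. Of the 48, 15 were non-overlapping and higher and 21 lower. A list count that includes such genes is therefore not independent of the study's choice. No list was tested as a set. Of the 406, 73 were not above background on any 6-OHDA array. For every gene named below limma's adjusted p was between 0.933 and 0.995 unless another is given, so that higher and lower describe these 6 arrays and do not denote a called change.

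Differences were small for most genes. The absolute log2 difference stayed under 0.26 for 73.2% of the genes, while it exceeded 1 for 192 genes. The pairs of arrays on the 3 slides had little in common. Across the 20421 genes, which are not independent replicates, the HFS minus 6-OHDA differences of slides 1 and 2 correlated at r = -0.04, those of slides 1 and 3 at r = 0.08 and those of slides 2 and 3 at r = 0.11. In 5390 genes (26.4%) all 3 slides differed in the same direction.

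**Figure D1:**
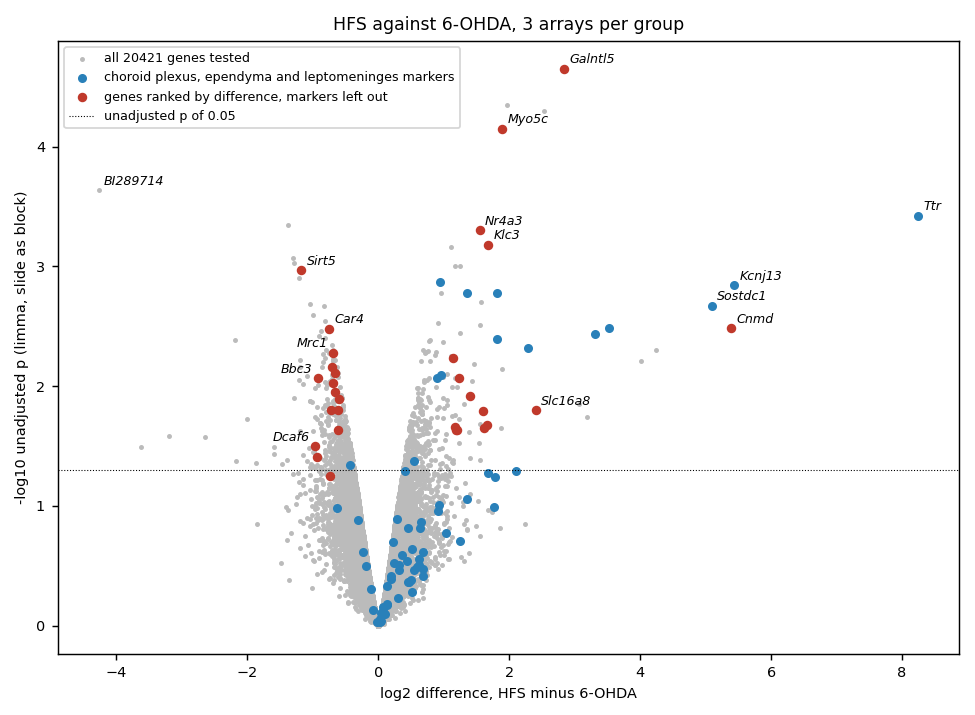
Log2 difference (HFS minus 6-OHDA, x axis) against -log10 of limma's unadjusted p (y axis) for the 20421 genes tested, each point being 1 gene and each group 3 arrays. Blue points are markers of choroid plexus, ependyma and leptomeninges, red points the highest and lowest ranked genes outside those lists, and the dotted line marks an unadjusted p of 0.05. Genes not above background in the 6-OHDA group, such as Cnmd and Galntl5, stand at their fitted difference, which is not exact. Ttr lies at 8.25, Galntl5 has the highest point, and Sirt5 is the red point farthest to the left, at -1.18.

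Immediate early genes, which record recent activity and cAMP or calcium signals, did not move as a group. Of 37 genes tested from a list of 41 on the array, 3 were non-overlapping and higher, 1 was non-overlapping and lower, and the median difference was 0.06 against 0.01 over all genes. By slide the median was 0.48, 0.21 and -0.40, so that the HFS array stood above its 6-OHDA partner on slides 1 and 2 and below it on slide 3.

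Nr4a3 (NOR-1), an orphan nuclear receptor of the NR4A family, had the largest difference of the list. Its log2 signal was 8.53, 8.17 and 8.02 on the 6-OHDA arrays and 10.29, 9.90 and 9.16 on the HFS arrays. Every HFS array lay above every 6-OHDA array, with a difference of 1.55 (SE 0.19), and another probe of the gene that was above background on all arrays differed by 1.75. Its relatives did not follow this pattern. Nr4a1 (Nur77), which is induced in striatal neurons when dopamine tone is low, had 14.09, 13.72 and 14.46 in the 6-OHDA group and 15.66, 14.93 and 13.79 in the HFS group. The first pair of HFS arrays exceeded all 6-OHDA arrays and the third lay within their range (difference 0.70, SE 0.46). Nr4a2 (Nurr1) differed by -0.43 (SE 0.69), and this sign turned when the arrays of slide 1 were left out.

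Egr2 (Krox-20), a zinc finger transcription factor, had the same shape as Nr4a1. Signals of 8.20, 8.45 and 8.87 in the 6-OHDA group stood against 11.30, 10.12 and 8.03 in the HFS group. The third HFS array was the lowest of all 6, so the groups overlapped despite a difference of 1.31 (SE 0.75). Nfil3, a transcription factor that also acts in the circadian clock, was at 8.27, 7.99 and 8.39 against 8.92, 8.95 and 8.83. All HFS arrays were higher, and the difference was 0.69 (SE 0.17). Dusp5, a phosphatase that inactivates ERK in the nucleus, was at 9.64, 9.61 and 10.12 against 10.56, 10.45 and 10.14. These groups did not overlap either (0.59, SE 0.23), although only narrowly so on slide 3. Fosl2, a partner of Jun in the AP-1 factor, differed by 0.95 (SE 0.48) with overlap.

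The mean differences of the classical activity markers were smaller than their standard errors, and these arrays do not settle them. For Arc the slides differed by 1.01, 0.62 and -0.95. Fos differed by 0.08 (SE 0.47), Egr1 by 0.09 (SE 0.25), Junb by 0.05 (SE 0.40) and Arc, which encodes a synaptic protein, by 0.23 (SE 0.41), and each of these 4 signs turned when single arrays or slides were left out. The third 6-OHDA array held the highest 6-OHDA signal of many members. For Fos it was at 9.90, against 8.13 and 7.98 on the other 6-OHDA arrays and 9.14, 8.49 and 8.62 in the HFS group.

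Btg2, an antiproliferative gene induced by p53 and by growth factors, was the non-overlapping member that was lower. Its signals were 9.63, 10.01 and 10.66 in the 6-OHDA group and 9.53, 9.41 and 9.16 in the HFS group. The highest HFS array lay just under the lowest 6-OHDA array, and the difference was -0.73 (SE 0.30). Jund, the member of the Jun family with high basal expression, was at 15.94, 16.39 and 15.40 against 15.62, 15.13 and 14.96. The HFS array was lower on each slide but the groups overlapped (-0.67, SE 0.24), and a second probe differed by -0.09. Ccn1 (Cyr61), a matricellular protein, differed by -1.07 (SE 0.75) with overlap.

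The promoters of some of these genes are shown because cAMP and calcium act on immediate early genes through the cAMP response element (CRE), TGACGTCA, and its half-site TGACG. The sequences are the 250 bases before the annotated RefSeq start of each gene in the rat assembly GRCr8, read 5′ to 3′ on the gene's strand. Capitals mark every match to the CRE or to the half-site on either strand (the half-site reads CGTCA on the other strand, and every CRE also contains it).
Btg2 promoter, chr13:48087691-48087940, minus strand: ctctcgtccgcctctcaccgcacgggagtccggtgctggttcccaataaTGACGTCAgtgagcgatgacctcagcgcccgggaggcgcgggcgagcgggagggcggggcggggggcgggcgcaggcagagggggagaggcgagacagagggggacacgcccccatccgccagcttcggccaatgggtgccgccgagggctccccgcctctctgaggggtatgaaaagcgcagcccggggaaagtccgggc
Jund promoter, chr16:18769772-18770021, minus strand: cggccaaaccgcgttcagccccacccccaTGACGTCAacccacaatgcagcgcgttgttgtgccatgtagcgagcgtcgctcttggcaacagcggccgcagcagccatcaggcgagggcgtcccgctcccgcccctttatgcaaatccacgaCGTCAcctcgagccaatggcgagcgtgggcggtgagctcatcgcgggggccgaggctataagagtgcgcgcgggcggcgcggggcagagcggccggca
Nr4a1 promoter, chr7:134259888-134260137, plus strand: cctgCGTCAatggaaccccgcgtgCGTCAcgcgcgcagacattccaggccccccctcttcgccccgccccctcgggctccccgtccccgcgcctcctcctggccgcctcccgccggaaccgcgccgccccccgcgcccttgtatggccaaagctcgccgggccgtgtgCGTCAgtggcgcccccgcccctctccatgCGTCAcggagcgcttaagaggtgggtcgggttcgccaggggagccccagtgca
Btg2 and Jund each held 1 full CRE, which began 201 and 221 bases before the start, and Jund a further half-site at 98 bases. Nr4a1 held no full CRE and 4 half-sites, at 246, 226, 82 and 53 bases. Of the 37 tested genes of the list, 27 had a promoter in the table, of which 4 (14.8%) held the full CRE and 17 (63.0%) the half-site, against 1.59% and 18.2% of all 33469 promoters in the table. A gene of the list counted if any of its promoters matched, while the 33469 were counted promoter by promoter. The shares are therefore not strictly of the same unit. The 4 genes with the full CRE differed by -0.73 (Btg2), -0.67 (Jund), -0.46 (Ier2, SE 0.40) and -0.20 (Dusp1, SE 0.48). Ier2 encodes a nuclear protein and Dusp1 a MAP kinase phosphatase. The signs of Ier2 and Dusp1 turned when the arrays of slide 3 were left out. Genes of the list with the half-site differed in either direction, from -1.07 (Ccn1) to 1.31 (Egr2). Whether the CRE bears on the direction of a difference was not tested, and a match of letters does not show that a factor binds there.

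**Figure D2:**
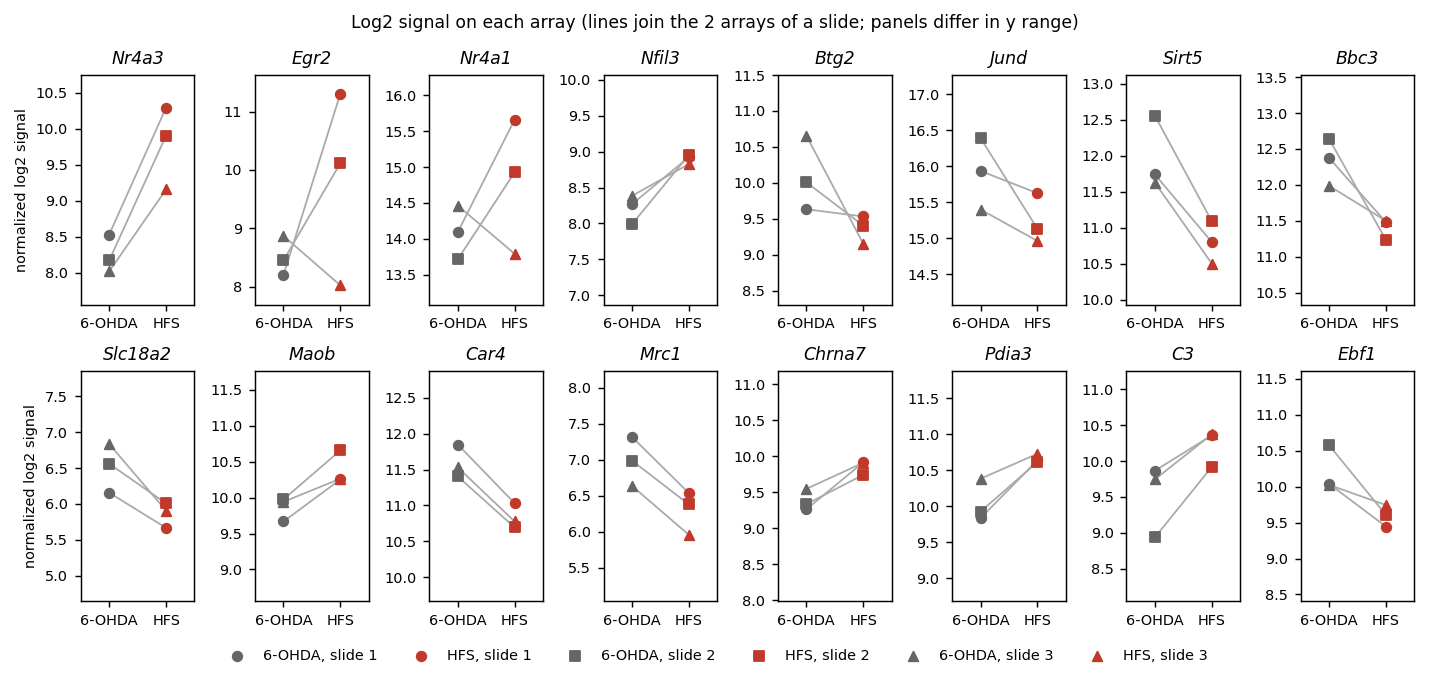
Normalized log2 signal (y axis, range differs between panels) of 16 genes on the 3 6-OHDA arrays (grey) and the 3 HFS arrays (red), with lines joining the arrays of a slide. Nr4a3, Nfil3, Maob, Chrna7, Pdia3 and C3 are non-overlapping and higher in HFS, while Btg2, Sirt5, Bbc3, Slc18a2, Car4, Mrc1 and Ebf1 are non-overlapping and lower. Egr2, Nr4a1 and Jund overlap.

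The genes that define the striatal projection neurons were much alike in the groups. Among 8 direct pathway genes tested, 1 was non-overlapping and lower, and the median difference was -0.10. That gene was Ebf1, a transcription factor needed for direct pathway neurons to mature, with 10.04, 10.58 and 10.02 in the 6-OHDA group and 9.44, 9.61 and 9.74 in the HFS group. The HFS arrays were all lower (-0.62, SE 0.19). Other direct pathway genes did not share this difference. Drd1, the D1 receptor, differed by 0.01 (SE 0.15), Pdyn, the dynorphin precursor, by -0.07 (SE 0.19) and Tac1, the substance P precursor, by 0.36 (SE 0.19). The signs of Drd1 and Pdyn turned under other settings.

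None of the 5 indirect pathway genes tested was non-overlapping, and their median difference was -0.13. Penk, the enkephalin precursor, was at 16.77, 16.16 and 16.81 in the 6-OHDA group and at 16.62, 16.44 and 16.70 in the HFS group. The probe was saturated on 1 array, so its difference of 0.01 (SE 0.17) is not exact, and an unsaturated probe of the gene differed by 0.13. Drd2, the D2 receptor, differed by 0.14 (SE 0.29) and Adora2a, an adenosine receptor, by -0.18 (SE 0.15). The sign of Drd2 turned when single arrays were left out and that of Penk also when arrays were scaled to their 75th percentile. Among the 22 genes tested that both kinds of projection neuron share, 0 were non-overlapping past the fold limits, with a median of 0.04. Bcl11b (Ctip2), a transcription factor of these neurons, differed by 0.54 (SE 0.25) with overlap.

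Of 11 GABA interneuron genes tested, 0 were non-overlapping, and their median difference was -0.05, with -0.09, 0.10 and 0.24 by slide. The 9 cholinergic interneuron genes tested had 1 non-overlapping, lower member and a median of -0.03, with -0.16, 0.20 and -0.15 by slide, so that the sign differed between slides in either list.

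Of 9 genes of dopamine synthesis and handling tested, 2 were non-overlapping and higher and 1 lower. Slc18a2 encodes VMAT2, the transporter that loads monoamines into vesicles. Its signals of 6.16, 6.56 and 6.83 in the 6-OHDA group stood against 5.67, 6.01 and 5.91 in the HFS group. The HFS arrays were all lower, by -0.66 (SE 0.17). The CRE was not counted by direction of difference outside the immediate early list, so this match does not bear on why Slc18a2 was lower. Its promoter is shown because it too held a full CRE, beginning 52 bases before the start, and a further half-site at 145 bases, with capitals as above.
Slc18a2 promoter, chr1:268399771-268400020, plus strand: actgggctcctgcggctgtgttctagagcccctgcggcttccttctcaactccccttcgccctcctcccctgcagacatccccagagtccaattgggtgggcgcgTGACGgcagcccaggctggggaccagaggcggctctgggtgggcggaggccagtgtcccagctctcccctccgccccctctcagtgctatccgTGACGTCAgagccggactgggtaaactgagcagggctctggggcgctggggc
Maob, the monoamine oxidase of astrocytes and serotonin neurons, was at 9.67, 9.97 and 9.94 against 10.25, 10.66 and 10.26. All HFS arrays were higher (0.53, SE 0.16). Ddc, the decarboxylase that turns L-DOPA into dopamine, was lower on each slide by a mean of -0.58 (SE 0.20) with overlap. Th, tyrosine hydroxylase, whose transcript is scarce in striatum, was above background on 1 of the 3 6-OHDA arrays. Its signals were 5.37, 4.42 and 5.39 in the 6-OHDA group and 5.39, 5.42 and 5.45 in the HFS group, so that its 0.36 (SE 0.25) rested on 1 low array.

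Receptors and channels showed few separations. Of the dopamine and adenosine, serotonin, adrenergic, muscarinic, NMDA, AMPA and kainate, metabotropic glutamate and GABA-A receptor lists, 0 genes were non-overlapping past the fold limits. Gria1, an AMPA receptor subunit, was higher on each slide (0.77, SE 0.26) with overlap. Nicotinic receptors were represented by 5 tested subunits of 16 on the array, since the others were too dim. All 5 differences were above 0, 1 of them of a subunit that passed the filter through the HFS arrays alone, and 2 were non-overlapping, but the median by slide was -0.17, 1.23 and 0.36. Chrna7, the alpha7 subunit, was at 9.26, 9.33 and 9.55 in the 6-OHDA group and 9.91, 9.74 and 9.91 in the HFS group. The HFS arrays were all higher (0.47, SE 0.15). Chrne, the epsilon subunit known from muscle, was well above background on none of the 6-OHDA arrays, and the HFS group was at least 1.37-fold higher.

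Few channel genes were non-overlapping. Those lower were 2 of 20 voltage-gated calcium channel genes, 1 of 8 TRP channels and 1 of 65 potassium channel genes, and 2 potassium channel genes were higher. Over all genes tested 1.33% were lower and 1.99% higher by this rule. The study had listed Cacnb2, Cacna1b and Trpc4 as lower with HFS on these same arrays. The calcium and TRP channel counts are therefore not independent of them. Cacnb2, an auxiliary calcium channel subunit, differed by -0.36 (SE 0.15, second probe -0.09), and Cacna1b, the pore of N-type channels, by -0.34 (SE 0.17). Trpc4, a cation channel that is also abundant in septum and thalamus, differed by -0.42 (SE 0.17), and Kcng2, a modulatory potassium channel subunit, by -0.41 (SE 0.16, with the 3 probes above background between -0.14 and -0.41). The 2 higher potassium channel genes, Kcnj13 and Kcne2, are choroid plexus markers. Of 8 protein kinase C isoforms tested, 0 were non-overlapping. Prkcd, the delta isoform, was lower on each slide by a mean of -0.61 (SE 0.23). Like Trpc4 it is in the list of thalamus and septum markers, whose part in these values was not tested.

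**Figure D3:**
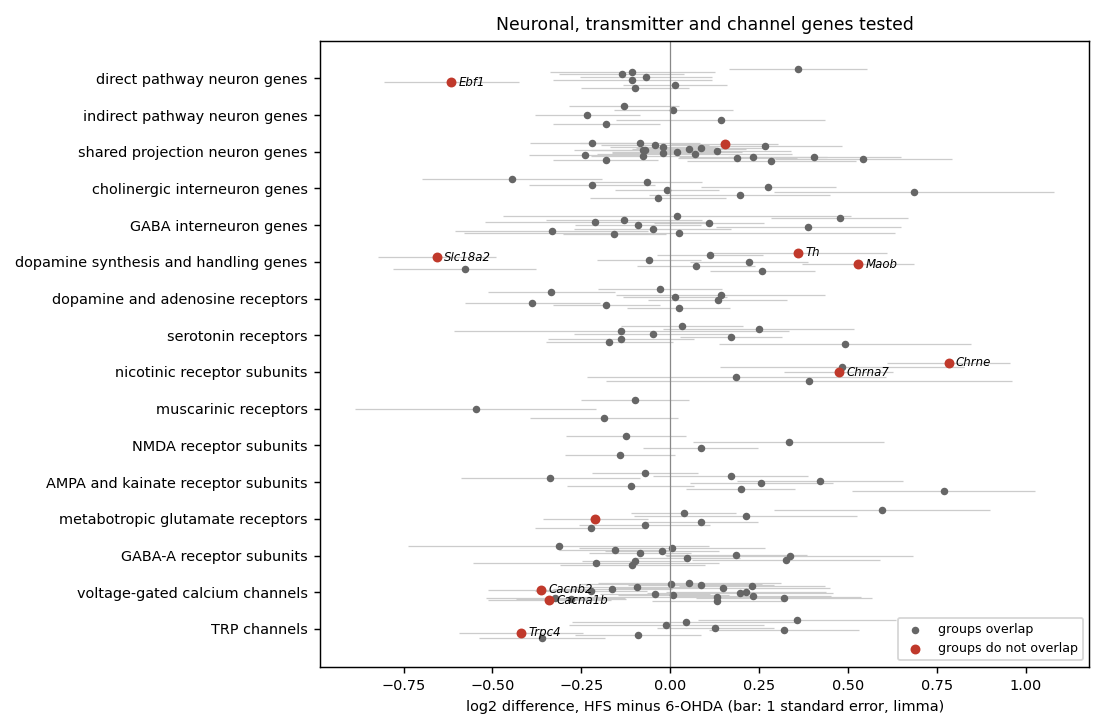
Log2 difference (HFS minus 6-OHDA, x axis) of tested genes of 16 neuronal, transmitter and channel lists (y axis), with bars of 1 standard error from limma. Red points are genes whose 3 arrays per group do not overlap, named where they also pass the fold limits. The points of every list lie on either side of 0 except for the nicotinic subunits, all 5 above 0, and the 3 muscarinic receptors, all below 0.

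Sirt5 headed the lower side of the ranking of genes outside the marker lists. It encodes a mitochondrial deacylase that removes succinyl and malonyl groups from metabolic enzymes. The 6-OHDA signals were 11.74, 12.56 and 11.63 and the HFS signals 10.80, 11.09 and 10.50. The groups were clearly apart and the HFS array was lower on each slide, with a difference of -1.18 (SE 0.17). None of the other 6 sirtuins tested was non-overlapping, and the median of the family was -0.02.

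Bbc3 (Puma), a BH3-only protein that triggers apoptosis at the mitochondrion, was the non-overlapping member of the 15 Bcl2 family genes tested. It was at 12.38, 12.64 and 11.99 in the 6-OHDA group and at 11.48, 11.23 and 11.50 in the HFS group. All HFS arrays were lower (-0.93, SE 0.22), while the family as a whole had a median of -0.06. Of 29 caspases and death receptor genes tested, 3 were non-overlapping and higher and 2 lower. The lower genes were Tnfrsf11b (osteoprotegerin), a decoy receptor for RANKL and TRAIL, at -0.55 (SE 0.17), and Tradd, an adaptor of the TNF receptor, at -0.42 (SE 0.17). Further probes of Tradd differed by -0.31 and -0.21, with overlap. Casp2 (0.37, SE 0.18) and Casp4 (0.41, SE 0.14), an initiator and an inflammatory caspase, were among the higher genes. The list held no shared direction, with 13 differences above 0 and 16 below.

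Insulin-like growth factor genes had a median above 0 on each slide. Of 12 tested, 9 differences were above 0, against 10525 of all 20421 genes, and the median was 0.27 (0.39, 0.32 and 0.17 by slide). Non-overlapping and higher were 3 genes (25%), against 1.99% of all genes. Of these, Igf2 is also in the choroid plexus list and Igfbp2 in the leptomeninges list. The study had listed Igf2 and Htra1 as higher with HFS on these same arrays, so the list is not independent of them. It also reported Igf2 as higher with HFS by RT-qPCR in other rats. Igfbp2, an IGF-binding protein, was at 7.94, 7.35 and 7.14 in the 6-OHDA group and 10.30, 8.13 and 9.45 in the HFS group. The HFS arrays were all higher, by 1.81 (SE 0.36), with the second nearest to the 6-OHDA group. Igf2, the fetal growth factor that choroid plexus and leptomeninges keep producing in adults, was at 12.28, 12.08 and 11.88 against 13.49, 12.50 and 13.15. It had the same order of HFS arrays and differed by 0.96 (SE 0.23). The choroid plexus markers also stood lowest on the second HFS array, and their part in the Igf2 and Igfbp2 values was not tested. Htra1, a secreted protease that cleaves IGF-binding proteins, was at 12.67, 12.47 and 12.89 against 13.04, 13.16 and 13.20. Its 3 HFS arrays were close to each other (0.46, SE 0.16). Igf1r, the IGF-I receptor, differed by 0.27 (SE 0.18) with overlap.

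Astrocyte genes leaned upward by a small amount. Of 20 tested, 16 differences were above 0, 2 genes were non-overlapping and higher, and the median was 0.14, with 0.15, 0.14 and 0.08 by slide. Agt, angiotensinogen, was at 12.09, 12.34 and 12.39 in the 6-OHDA group and at 12.66, 12.67 and 12.59 in the HFS group. The groups were apart by 0.37 (SE 0.16). Glul, glutamine synthetase, differed by 0.45 (SE 0.16) on its brightest probe and by 0.34 and 0.00 on others. Slc1a2, the glutamate transporter GLT-1, differed by 0.14 (SE 0.15). Gfap, the intermediate filament that increases in reactive astrocytes, was at 8.66, 8.21 and 8.86 against 8.62, 9.06 and 8.47. The groups overlapped fully, and the sign of the 0.14 (SE 0.27) turned when arrays were left out.

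Microglia and macrophage genes were on balance alike, with a median of -0.04 over 20 genes and 1 non-overlapping gene. That gene was Mrc1 (CD206), the mannose receptor of perivascular and meningeal macrophages, at 7.32, 6.99 and 6.64 in the 6-OHDA group against 6.54, 6.38 and 5.96 in the HFS group. It was lower on each slide (-0.69, SE 0.15). Cd68, a lysosomal macrophage protein, differed by -0.25 (SE 0.17) and Aif1 (Iba1) by -0.18 (SE 0.16).

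Endothelial and pericyte genes had a median slightly below 0, at -0.06, with -0.31, -0.01 and -0.06 by slide. Of 25 tested, 18 differences were below 0, against 9896 of all 20421 genes. Non-overlapping and lower were 3 genes (12%), against 1.33% of all genes. The study had listed Vtn and Edn1, both members, as lower with HFS on these same arrays, so the list is not independent of them. It also gave RT-qPCR primers for Car4, another member, whose place in the list may not be independent either. Car4, a membrane-bound carbonic anhydrase on the lumen of brain capillaries that the files name Ca4, was at 11.85, 11.40 and 11.53 in the 6-OHDA group and at 11.03, 10.69 and 10.78 in the HFS group. The HFS array was lower by a like amount on each slide, with a difference of -0.76 (SE 0.14). Foxq1, a transcription factor of brain endothelium, differed by -0.72 (SE 0.20), and Vtn (vitronectin), a pericyte product, by -0.41 (SE 0.15). Edn1, the vasoconstrictor endothelin-1, differed by -0.67 (SE 0.26), but on slide 3 it was at 6.98 in HFS and 6.99 in 6-OHDA, and the groups overlapped. Oligodendrocyte genes had 0 non-overlapping members of 20. Mbp and Mobp, both of myelin, differed by 0.49 (SE 0.32) and 0.62 (SE 0.26).

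Of 15 complement genes tested, 3 were non-overlapping and higher (20%), against 1.99% of all genes. Of the 3, Cd55 passed the filter through the HFS arrays alone. C3, the central component of the cascade, was at 9.86, 8.94 and 9.74 in the 6-OHDA group and at 10.36, 9.92 and 10.37 in the HFS group. Each HFS array was higher than every 6-OHDA array (0.70, SE 0.17). C1s, a protease of the classical pathway, differed by 0.53 (SE 0.21), and Cd55, which limits complement at the cell surface, was at least 1.01-fold higher, being below background in the 6-OHDA group. Among 28 MHC genes tested, 2 class II genes were non-overlapping and higher. RT1-Da differed by 1.14 (SE 0.25), with 1 of 3 6-OHDA arrays above background, and RT1-Db1 by 0.63 (SE 0.22), with another probe at 0.93. Cd74, the invariant chain that escorts class II molecules, was at 6.05, 5.89 and 6.88 against 8.33, 6.59 and 7.61. It was higher on each slide (1.24, SE 0.36) with overlap. The MHC median by slide was 0.40, 0.30 and -0.29, and of 26 interferon response genes tested 0 were non-overlapping.

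Protein synthesis and folding genes had many small positive differences. Of 74 cytoplasmic ribosomal protein genes tested, 55 were above 0 and 7 were non-overlapping and higher, with a median of 0.09 (0.20, 0.02 and 0.09 by slide). Rpl10 was at 14.94, 14.94 and 15.22 in the 6-OHDA group and at 15.34, 15.34 and 15.54 in the HFS group, 0.37 apart (SE 0.14), and its second probe differed by 0.06. Probes of ribosomal genes can share sequence with pseudogenes. Of 63 heat shock and ER chaperones tested, 3 were non-overlapping and higher. Pdia3, a disulfide isomerase of the endoplasmic reticulum, was at 9.83, 9.93 and 10.38 against 10.64, 10.62 and 10.73. The HFS arrays were all higher and close together (0.61, SE 0.17). Its partner Calr (calreticulin) differed by 0.49 (SE 0.15), with a narrow overlap. Mitochondrial respiratory chain genes had a median of 0.02 with 1 of 73 non-overlapping, and proteasome subunits a median of 0.08 with 1 of 40.

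Morphogen and growth factor genes were dispersed. Among 34 BMP and TGF-beta genes tested, Sostdc1, a secreted BMP and Wnt antagonist and a choroid plexus marker, was non-overlapping and higher, and Nog and Gpc3 were lower. Nog (noggin), which binds BMPs, was at 8.13, 8.94 and 8.08 in the 6-OHDA group against 7.59, 7.99 and 7.82 in the HFS group. The separation was small next to the spread of the 6-OHDA group (-0.58, SE 0.19), and a second probe of Nog differed by -0.36 with overlap. Gpc3, a cell surface proteoglycan, differed by -0.56 (SE 0.21, second probe -0.11). Wnt2b, a Wnt ligand, was the non-overlapping gene of 22 Wnt genes, at 6.09, 6.10 and 6.05 against 5.6, 5.41 and 5.22. All HFS arrays were lower (-0.67, SE 0.16). Of the 26 neurotrophic factor and receptor genes tested, Ngfr (the p75 receptor) and Nrg1 (neuregulin 1) were non-overlapping and higher, by 0.66 (SE 0.20) and 0.73 (SE 0.24), and 1 gene was non-overlapping and lower. Ngfr was above background on only 1 of the 3 6-OHDA arrays. Of 21 neurogenesis genes tested, 2 were non-overlapping and higher and 1 lower. The lower gene was the Notch ligand Dll1 (-0.54, SE 0.17), and the cyclin Ccnd2 was among the higher (0.51, SE 0.20). Rpe65, the isomerase of the visual cycle, was the non-overlapping member of 14 retinoid genes, higher by 0.76 (SE 0.24).

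Outside the choroid plexus, ependyma and leptomeninges lists, the ranking held 335 higher and 173 lower genes with a symbol. In each the groups did not overlap at any fold, the 3 slides differed in the same direction, and the gene was above background on all arrays of the higher group. The head of the higher side consisted largely of genes near background. Cnmd (chondromodulin, Lect1 in the files), a glycoprotein of cartilage, was at 2.74, 2.89 and 2.86 in the 6-OHDA group and 11.28, 6.33 and 7.05 in the HFS group. No 6-OHDA array showed it well above background, and the HFS group was at least 8.78-fold higher. Galntl5, a relative of the enzymes that begin O-glycosylation, was at 3.73, 4.08 and 3.27 against 6.74, 6.55 and 6.30. The HFS arrays were close together and at least 2.72-fold higher, and this gene was 1 of 3 at the lowest adjusted p (0.343, limma). Myo5c, an unconventional myosin of epithelial secretory cells, was at 5.88, 5.62 and 5.25 against 7.57, 7.60 and 7.24. It was above background on 2 of the 3 6-OHDA arrays, with a difference of 1.89 (SE 0.16, adjusted p = 0.363 in limma). A second, dimmer probe of Myo5c, above background on 1 of the 3 6-OHDA arrays, differed by 0.46 with overlap. Slc16a8, a monocarboxylate transporter known from retinal pigment epithelium and choroid plexus, was at least 1.43-fold higher, and Klc3, a kinesin light chain, at least 1.65-fold higher. Nr4a3, above background on all 6 arrays, had rank 9 on this side.

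The lower side held brighter genes. After Sirt5 it gave Dcaf6, a substrate receptor of a ubiquitin ligase, at -0.97 (SE 0.33), with 5 probes from -0.06 to -0.97. Pla2g12a, a secreted phospholipase A2, was at 12.93, 13.04 and 12.34 in the 6-OHDA group and 11.24, 11.94 and 12.31 in the HFS group. Slide 1 carried the largest gap and slide 3 almost none (-0.94, SE 0.34). Ldaf1, a lipid droplet assembly factor, differed by -0.71 (SE 0.16), C1qtnf6, a secreted C1q-like protein, by -0.69 (SE 0.17), and Gtpbp8 by -0.60 (SE 0.16). Zic4, a zinc finger transcription factor, differed by -0.62 (SE 0.17). Genes outside these rules that were picked after their values were seen include Jag1, a Notch ligand, at 10.51, 11.003 and 9.45 against 9.54, 9.00 and 8.77, lower on each slide with a small overlap (-1.22, SE 0.29). Hpgd, which inactivates prostaglandins, was at 8.36, 8.41 and 8.72 against 6.67, 8.48 and 6.15, so that the second HFS array stood with the 6-OHDA group (-1.40, SE 0.51). The largest lower difference of all belonged to a transcript that the files name only as BI289714, at 8.40, 9.68 and 8.19 against 5.06, 4.10 and 4.30 (-4.27, SE 0.45).

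Markers of tissue next to the striatum differed between arrays, and their part in the results above was not tested. Of 24 choroid plexus markers tested, 23 differences were above 0 and 9 were non-overlapping, but 5 of the 24 passed the filter through the HFS arrays alone. The list had medians by slide of 2.02, 0.24 and 1.15. The summed intensity of the list ran from 17821 to 23307 on the 6-OHDA arrays and from 27656 to 128097 on the HFS arrays. Ttr (transthyretin), the thyroid hormone carrier of cerebrospinal fluid, was at 6.29, 6.66 and 5.86 against 16.33, 11.91 and 15.31, and Slco1a5, a thyroid hormone transporter, was 1.35 higher (SE 0.22). Crym, which binds thyroid hormone inside neurons, was at 15.85, 15.82 and 15.77 against 16.05, 16.02 and 16.07, a difference of 0.23 (SE 0.14). The 25 ependyma and cilia genes had differences above 0, which for the 2 that passed the filter through the HFS arrays alone follows from the filter. The list had a median of 0.51 and 0 non-overlapping members. Their medians by slide were 1.89, -0.37 and 0.26, and the 6-OHDA array of slide 1 was low in them. Foxj1, the regulator of motile cilia, was at 10.49, 12.65 and 11.59 in the 6-OHDA group and at 12.50, 11.67 and 12.06 in the HFS group. Cortex markers moved apart on the slides, with medians of -1.58, 0.54 and 1.01. Slc17a7, the glutamate transporter of cortical neurons, ranged from 4.42 to 7.57 in the 6-OHDA group and from 4.69 to 7.82 in the HFS group. Of 8 markers of thalamus, septum and other neighbours tested, 5 differences were below 0 and 1 gene was non-overlapping and lower. Their median was -0.18, with -0.70, 0.33 and -0.10 by slide. Without the choroid plexus, ependyma and leptomeninges markers, the non-overlapping genes numbered 395 higher and 272 lower.

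**Figure D4:**
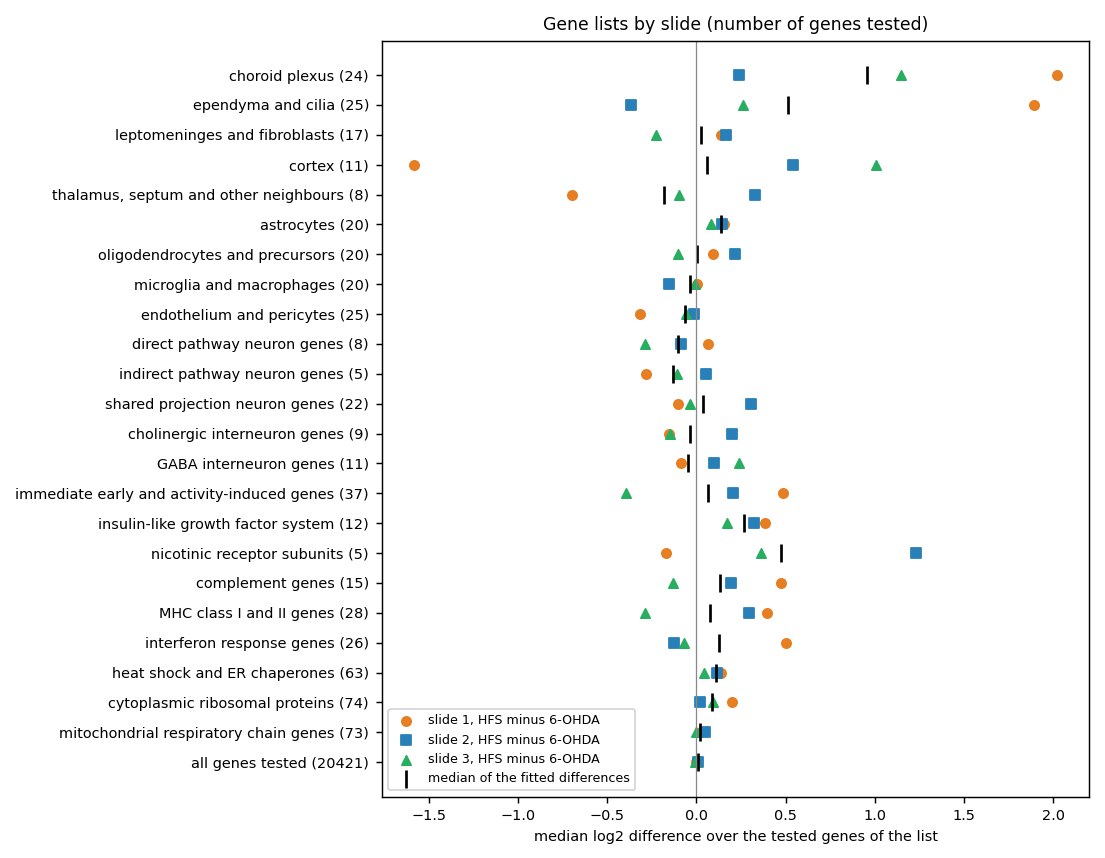
Median log2 difference over the tested genes of each list (x axis; number of genes in brackets on the y axis), by slide (coloured symbols, HFS array minus 6-OHDA array) and for the fitted differences (black bars). The choroid plexus list lies above 0 on each slide, at 2.02, 0.24 and 1.15, ependyma and cortex markers change sign between slides, and immediate early genes lie at 0.48, 0.21 and -0.40. The chaperone, ribosomal and astrocyte lists lie above 0 on each slide by 0.20 or less.

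The same stimulation was also given to rats on L-DOPA, where 3 DOPA/HFS arrays can be set against 3 DOPA arrays that the comparison above does not share. In a fit of all 12 arrays, which held 18567 genes, limma called 0 genes (0.0%) for a response to HFS that differed with L-DOPA, at a lowest adjusted p of 0.9999, with 454 genes (2.45%) at an unadjusted p under 0.05. It called 0 genes (0.0%) for DOPA/HFS vs DOPA as well, with 993 (5.35%) at an unadjusted p under 0.05. The differences with and without L-DOPA correlated at r = 0.21 across these genes, which are not independent replicates, and at r = 0.24 without the choroid plexus, ependyma and leptomeninges markers. On 1 of these arrays, DOPA/HFS replicate 3, 4175 spots were marked as outliers and left out, against 2 to 25 on the others.

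The genes of the ranking were chosen for large differences without L-DOPA. Of the 30, 21 were above background on at least 1 6-OHDA and 1 HFS array and could be fitted on all 12 arrays. Their difference between DOPA/HFS and DOPA had the same sign in 11, the other sign in 10, and was smaller in size in 21. Nr4a3 differed by -0.48 (SE 0.26) between DOPA/HFS and DOPA, a change of -2.04 (SE 0.36) from the difference without L-DOPA, whose adjusted p was 0.9999 in limma. Sirt5 differed by 0.24 (SE 0.28), Bbc3 by 0.11 (SE 0.21), Nfil3 by -0.05 (SE 0.16) and Igf2 by -0.34 (SE 0.29). The direction was kept by Car4 at -0.56 (SE 0.16), Edn1 at -0.60 (SE 0.23), Ebf1 at -0.34 (SE 0.19), Hpgd at -1.71 (SE 0.49), C3 at 0.90 (SE 0.43), Maob at 0.30 (SE 0.24) and Chrna7 at 0.26 (SE 0.16). Myo5c, at 1.22 (SE 0.60), kept it too. Ngfr differed by 0.66 without L-DOPA, where it was above background on 1 6-OHDA array, and by -1.40 (SE 0.50) with it. No interaction passed the adjusted test, so these values do not show that the response differed with L-DOPA.

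**Figure D5:**
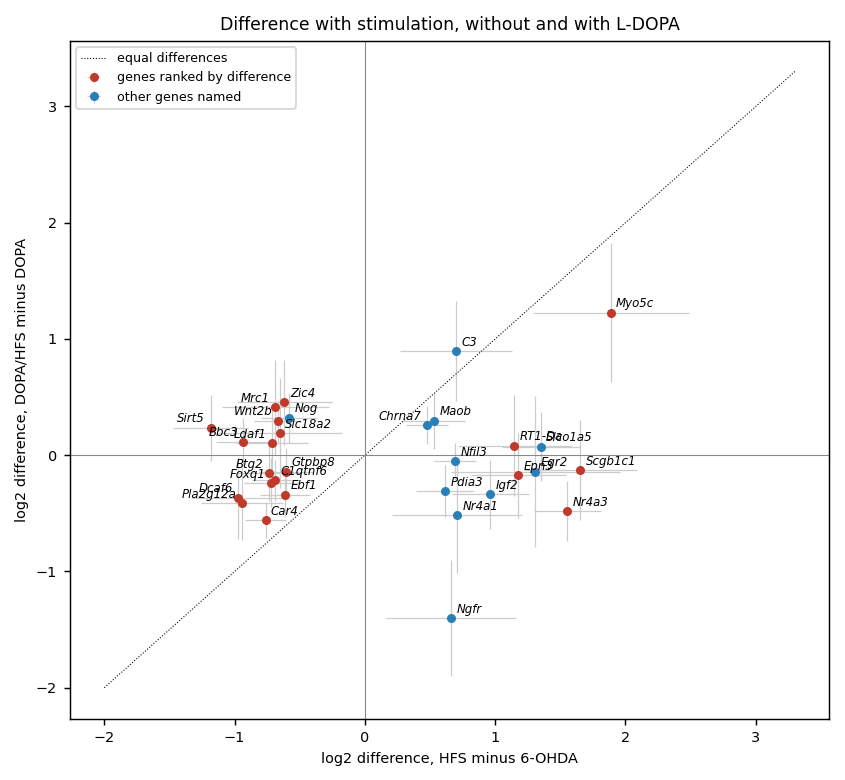
Log2 difference with stimulation in rats without L-DOPA (HFS minus 6-OHDA, x axis) and with L-DOPA (DOPA/HFS minus DOPA, y axis) for 20 ranked genes (red) and 11 other named genes (blue), with bars of 1 standard error from a limma fit of all 12 arrays. Ranked genes that were dark in all 3 arrays of a group, and 1 whose name differs between the array file and RefSeq, are left out. Car4 lies below 0 on both axes, and Nr4a3, Ngfr and Igf2 lie above 0 on the x axis and below 0 on the y axis.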

How the data were processed

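Striatal RNA of each rat was labelled with Cy3 and hybridised to 1 Agilent array. Per the file headers and the submitters' processing notes, the authors quantified each spot with Agilent Feature Extraction 9.1, and the deposited intensity values are on a linear scale, already corrected for background and spatial trend, with no normalization between arrays. The authors also deposited a table of log2 values, quantile normalized between the 12 arrays, used here only as an alternative. Its column medians are 7.28 on the 6 arrays, its ranks follow the scanner intensities, and its centring is not known beyond that.

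Each array held 45018 spots. The 1639 controls and 2 to 15 outlier spots per array were left out, log2 intensities were quantile normalized among the 6 arrays, and spots of a probe were averaged. Of 41012 probes, 24824 carried a RefSeq mRNA accession and 10735 were renamed through the RefSeq table of GRCr8. No coordinate of that table was used for a probe. The array design's build is not given in the sources used here. A probe was kept if it was well above background on at least 3 of the 6 arrays, and the brightest probe stood for a gene. The promoter sequences come from RefSeq, GRCr8. The number of arrays limits the precision.

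R 4.3.3 was used with jsonlite 2.0.0 and data.table (version 1.17.8). Models were fitted in limma 3.58.1 (lmFit, then eBayes) with the slide as a block, and p was adjusted by Benjamini-Hochberg over all genes. The limits (adjusted p under 0.1, fold over 1.2 or under 0.8) follow the study's methods, whose SAM test was not rerun. After removal of group means, arrays of the same slide correlated at 0.07, 0.16 and 0.46, where the pairing comes from the slide in the file headers. Groups and replicates were taken from the labels, with 3 animals per group. A gene not well above background in a group is given as at least N-fold higher: the brighter group's mean against the dimmer group's mean of, per array, the higher of the gene's own signal and the lowest signal well above background. The interaction was fitted to all 12 arrays. The values of 2 listed genes are not reported here. The fits were tested on simulated data. Tables and figures used Python 3.11.15, pandas 2.3.3, numpy 2.4.6 and matplotlib 3.10.9.

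Genes could be named from the gene and marker lists, from those the study names for HFS, and as the 15 highest and 15 lowest non-overlapping genes with a symbol, the same direction on each slide and a signal above background in the higher group, without markers of choroid plexus, ependyma and leptomeninges. Members and lists were chosen with earlier results of these data known. Alternatives were the fit without the block, all 12 arrays, scaling to the 75th percentile, normexp with an offset of 50, the deposited table, other filters and probes of a gene, outlier spots kept, other thresholds, and each slide or array left out. The counts without markers were added with the data in view.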

Additional observations from a re-analysis of the deposited data

How the results depend on the processing

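The count of genes whose response to HFS differed with L-DOPA was 0 also without the slide as a block and with arrays scaled to the 75th percentile, the alternatives run for it. Without the slide as a block, limma called 2 genes higher (Galntl5 and an unnamed transcript, adjusted p 0.076) and 0 lower, and 190 higher and 175 lower at an unadjusted p under 0.05. As slides were left out, or single arrays together with the block, 0 to 7 genes were called higher and 0 to 1 lower. Without the arrays of slide 2 the called genes were Ttr and Sostdc1, without the block and HFS replicate 2 they were 7, among them Ttr, Sostdc1, Kcnj13, Kcne2 and Aqp1, and without the block and 6-OHDA replicate 2 Galntl5 was called higher and BI289714 lower (adjusted p 0.0882 in limma). Without the block and 6-OHDA replicate 3, 1 unnamed transcript was called.

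Non-overlapping genes numbered 264 higher and 153 lower with the normexp background, 219 and 161 in the deposited table, and 816 and 1329 with no filter on dim probes, which tests more genes. With slides left out, or single arrays together with the block, they ran from 685 to 2148 and from 477 to 1966, since fewer arrays overlap less often. At an unadjusted p under 0.05 there were 794 higher and 652 lower with no filter, 331 to 459 and 313 to 415 with slides left out and the block kept, and 151 to 580 and 108 to 894 with single arrays and the block left out together. The cause of the other shifts was not tested.

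The differences that turned sign were those below or little above their standard error. With arrays scaled to the 75th percentile, Drd1 became -0.021 and Penk -0.12. With slides left out, or arrays and the block, the lowest and highest differences were -0.17 and 0.82 for Arc, -0.12 and 0.093 for Drd1, -0.25 and 0.42 for Drd2, -0.65 and 0.51 for Dusp1, -0.17 and 0.41 for Egr1, -0.39 and 0.76 for Fos, -0.25 and 1.24 for Foxj1, -0.21 and 0.40 for Gfap, -0.80 and 0.12 for Ier2, -0.41 and 0.59 for Junb, -1.01 and 0.62 for Nr4a2, -0.24 and 0.083 for Pdyn, -0.20 and 0.12 for Penk and -0.56 and 2.35 for Slc17a7. Depth in the sense of signal over background limits the dim genes, for which a bound is given.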
